A study of Bos taurus with 12 samples.

Results

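The 2 negative controls of a transfection study in cattle (Bos taurus) precursor adipocytes were compared with each other: the plasmid control (OE_NC, 3 libraries) against the interference control (si_NC, 3 libraries). They were chosen by their sample titles and make up 6 of the 12 libraries of the series. Precursor adipocytes are stromal cells committed to the fat lineage that divide in culture and have not yet filled with lipid. OE_NC cells received pcDNA3.1-NC, an expression vector that the labels describe as carrying an NC version of the HGFAC coding region. HGFAC, hepatocyte growth factor activator, is a secreted protease that cleaves pro-HGF, the ligand of the receptor MET. si_NC cells belong to an interference assay and received what the labels call an NC plasmid. The other groups, used here only beside the controls, are OE (pcDNA3.1 with HGFAC, 3 libraries) and si (the interference assay, whose label also speaks of a plasmid and names no target, 3 libraries). The term plasmid control thus means the pcDNA3.1 control and does not set plasmid against no plasmid. All cells were collected 48 h after transfection into TRIzol, and polyadenylated RNA was sequenced. The labels give the seeding and transfection steps for the interference groups and vector construction for the plasmid groups. Agent, experiment and any difference in handling between the experiments therefore cannot be told apart, and a change here is a difference between 2 sets of control cells, neither of them untransfected. The labels do not say that replicates came from separate cultures, so p-values measure only the spread between these libraries.

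Transfected nucleic acid can be sensed by cytosolic and endosomal receptors that induce interferon genes. In sterol-fed cells the transcription factor SREBP2 is held in the endoplasmic reticulum by INSIG proteins. When sterols run low it moves to the Golgi, is cleaved, and turns on the genes of cholesterol synthesis, while its relative SREBP1 drives genes of fatty acid synthesis and desaturation. ATF4, the effector of the integrated stress response, turns on amino acid synthesis and transport, and NRF2 (gene NFE2L2) turns on genes of thioredoxin and glutathione metabolism.

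Reads assigned to genes summed to 28.9 to 38.2 M in the 6 control libraries and 28.9 to 42.7 M in all 12. Levels are given as CPM, counts scaled by library total and TMM factor. Log2 CPM correlated at 0.984 to 0.988 within si_NC, at 0.988 to 0.992 within OE_NC and at 0.976 to 0.984 between them. Of the control libraries, si_NC replicate 2 stood apart: it correlated better with replicate 3 of si (0.988) than with its own group (at most 0.985), and that si library in turn correlated with its own group at 0.986 at most. Both labels were kept as given, and whether the 2 were exchanged cannot be told from them. Replicate 3 of si_NC also correlated slightly better with a si library (replicate 2, 0.9889) than with its own group (at most 0.9882). Precursor markers were set beside the label: the summed level of 11 stromal markers was 8980 to 9880 CPM in si_NC and 9250 to 9500 CPM in OE_NC, and all 11 had counts. Most of this sum was VIM (means 5826 and 5759 CPM) and ITGB1 (means 1786 and 1773 CPM). Mature adipocyte markers summed to 19.2 to 31.8 and 25.7 to 29.2 CPM, with FABP4, a fatty acid carrier of fat cells, at 2.88 to 13.7 CPM in si_NC and 5.18 to 6.92 CPM in OE_NC. Immune markers summed to 8.7 to 10.9 and 9.38 to 9.87 CPM, 1 of 6 at 0 throughout. Endothelial markers summed to 53.8 to 77.5 and 64.1 to 83.8 CPM, groups that overlapped. Most of that sum was FLT1 (means 65.4 and 69.0 CPM), while PECAM1 had means of 0.36 and 0.44 CPM and CDH5 of 0.45 and 0.29 CPM. Muscle markers (11.6 to 13.2 against 19.1 to 21.1 CPM) and epithelial markers (1.94 to 2.5 against 3.51 to 4.23 CPM) were higher in every OE_NC library at low levels, and smooth muscle markers were higher (4010 to 4870 against 4950 to 5670 CPM). Most of the muscle sum was ACTA1 (means 9.1 and 15.5 CPM), with MYOD1 at most 0.055 and MYOG at most 0.070 CPM in any control library. The sum of bone and cartilage markers was lower (138 to 229 against 82.7 to 133 CPM), but most of it was SPP1 (means 184 and 96.7 CPM). SOX9, another of these markers, was called higher (means 3.51 and 4.9 CPM). The part of these differences in the results below was not tested. In bulk RNA, fewer cells of a type and less RNA per cell cannot be told apart.

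HGFAC was low in both controls. Its level was 0.82, 0.74 and 0.93 CPM in si_NC and 0.27, 0.38 and 0.53 CPM in OE_NC, against 190, 156 and 138 CPM in the OE libraries. The highest OE_NC library was below the lowest si_NC library, and no OE_NC library came near the OE libraries. HGFAC (chromosome 6, 115437167 to 115445298, minus strand) was lower in OE_NC by edgeR's quasi-likelihood test (log2 change -1.08 ± 0.30 SE, n = 3 and 3, Benjamini-Hochberg adjusted p = 0.020). Leaving out 1 library at a time kept this call in 2 of 6 fits; it was lost without replicate 1 or 3 of si_NC, without replicate 1 or 2 of OE_NC, in a fit of the 6 control libraries alone, with counts halved, and in limma on log2(RPKM + 1). MET, the HGF receptor, was also lower: 14.9, 12.0 and 13.7 CPM in si_NC and 9.33, 8.39 and 7.64 CPM in OE_NC (log2 change -0.68, edgeR adjusted p = 0.0020). Of 10 tested genes of HGF activation and signalling, these 2 fell and none rose, 20 percent called against 19.7 percent of all genes tested.

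Between the controls 3215 of 16300 genes tested passed an adjusted p of 0.05 in edgeR, 19.7 percent: 1547 (9.49 percent) were higher and 1668 (10.2 percent) lower in OE_NC. The median absolute change of called genes was 0.49 on the log2 scale, and 493 genes (3.02 percent) changed at least 2-fold, 410 higher (2.52 percent) and 83 lower (0.509 percent). The even split depends on the scaling. Higher genes made up 48.1 percent of the calls with TMM, 70.9 percent with library totals alone (which move the median of all genes from 0.02 to 0.11), 71.7 percent with limma on log2(RPKM + 1), 71.9 percent with a pseudocount of 0.1, and 27.3 percent after a trend with exon length was removed. For 35.8 percent of all genes tested the 3 OE_NC values did not overlap the 3 si_NC values. Lipid synthesis genes stood among the falls: of the 83 genes that fell at least 2-fold, 14 were in a list of cholesterol genes and 5 in a list of fatty acid genes. The plot of called members by list shows how each list stood against all genes.

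**Figure D1:**
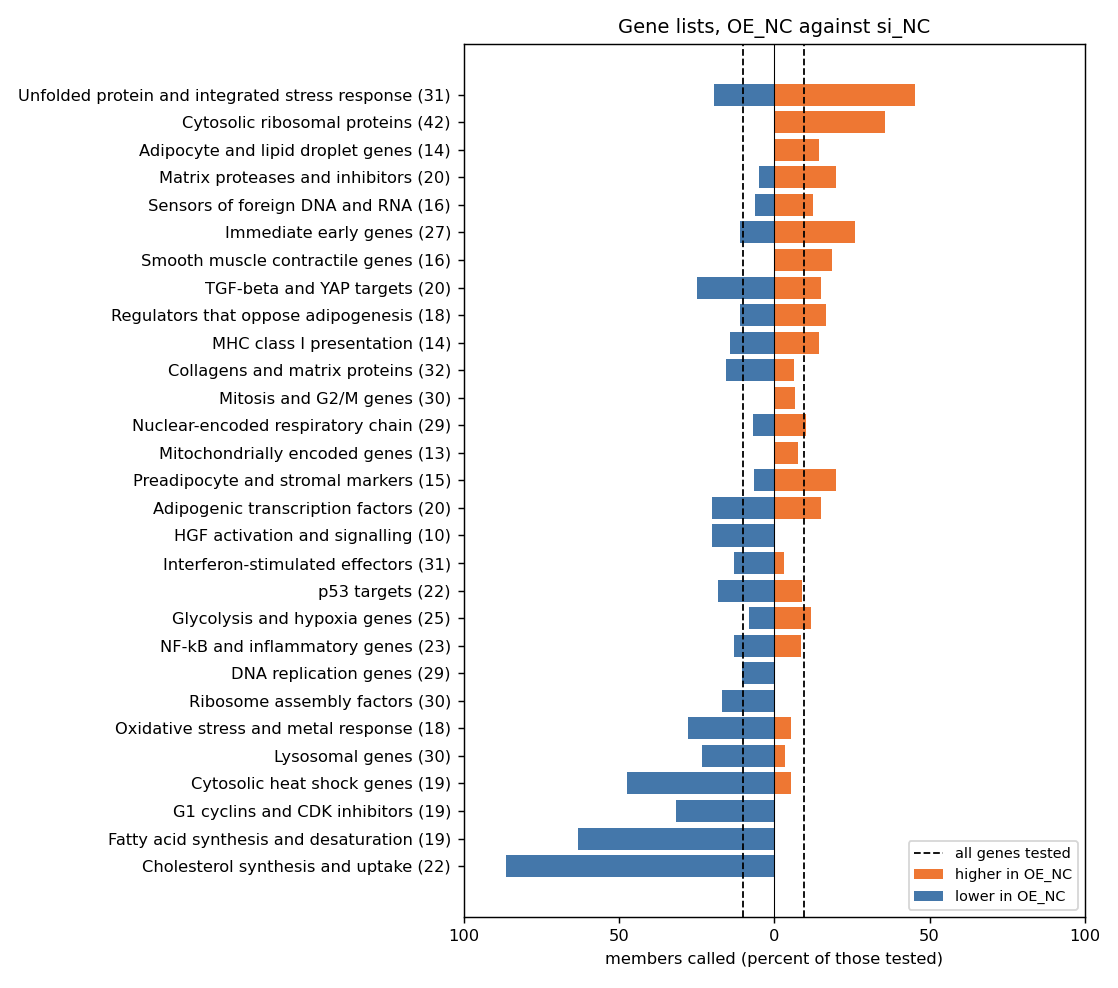
Percent of tested members of each gene list that passed the edgeR threshold, lower in OE_NC to the left and higher to the right (lists with at least 10 tested members, the number in brackets, sorted by median log2 change); dashed lines mark all genes tested, 10.2 percent lower and 9.49 percent higher. The cholesterol list lies lowest with 19 of 22 members lower, and the stress list highest with 14 of 31 higher and 6 lower.

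Cholesterol synthesis genes were lower in the plasmid control along nearly the whole pathway. Of 22 tested genes of cholesterol synthesis and uptake, 19 fell and none rose (86.4 percent called, against 19.7 percent of all genes). The list's median log2 change was -1.07, against 0.02 over all genes. HMGCS1, which makes HMG-CoA, stood at 215, 301 and 172 CPM in si_NC and at 32.0, 45.5 and 50.1 CPM in OE_NC. Every OE_NC library was far below every si_NC library, and si_NC replicate 2 was the highest (log2 change -2.43 ± 0.27 SE, edgeR adjusted p = 9.0e-05). HMGCS1 lies on chromosome 20 at 31431132 to 31456871.

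Further down the pathway came IDI1 (isopentenyl diphosphate isomerase, -1.78), FDPS (farnesyl diphosphate synthase, -1.01), FDFT1 (squalene synthase, -1.62), SQLE (squalene epoxidase, -1.78), LSS (lanosterol synthase, -1.50), CYP51A1 (lanosterol demethylase, -1.50), SC5D (sterol desaturase, -1.07) and DHCR7 (reductase of a last step, -1.09), all as log2 changes that passed the edgeR threshold. IDI1 showed the pattern with little scatter: 70.4, 81.9 and 60.2 CPM in si_NC against 18.8, 21.1 and 21.8 CPM in OE_NC. The groups did not overlap for any of these genes.

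The regulators moved with the enzymes. INSIG1, itself a target of SREBP2, fell from 20.8, 27.9 and 18.1 CPM to 4.80, 5.08 and 5.78 CPM (log2 change -2.09 ± 0.21 SE, edgeR adjusted p = 3.5e-05). SREBF2, which encodes SREBP2, had 30.1, 37.7 and 27.7 CPM in si_NC and 11.5, 16.8 and 17.2 CPM in OE_NC (-1.07). Neither gene had overlapping groups. The 3 list members that were not called were MVK (mevalonate kinase, -0.24, 95 percent interval -0.54 to 0.05), EBP (sterol isomerase, -0.13, interval -0.36 to 0.10) and TM7SF2 (sterol reductase, at most 0.33 CPM in any control library, -0.48, interval -1.84 to 0.88). Without si_NC replicate 2 the list still had 17 members lower and none higher, with a median of -0.96.

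TRH, thyrotropin-releasing hormone, had the largest fall of all genes named (43.6, 63.3 and 38.0 against 6.27, 7.76 and 8.75 CPM, log2 change -2.67). Its entry is uncertain: the count table places it on chromosome 20 from 31431521 to 55889851, and 363 of its 1544 exon bases lie in HMGCS1 exons on the same strand.

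**Figure D2:**
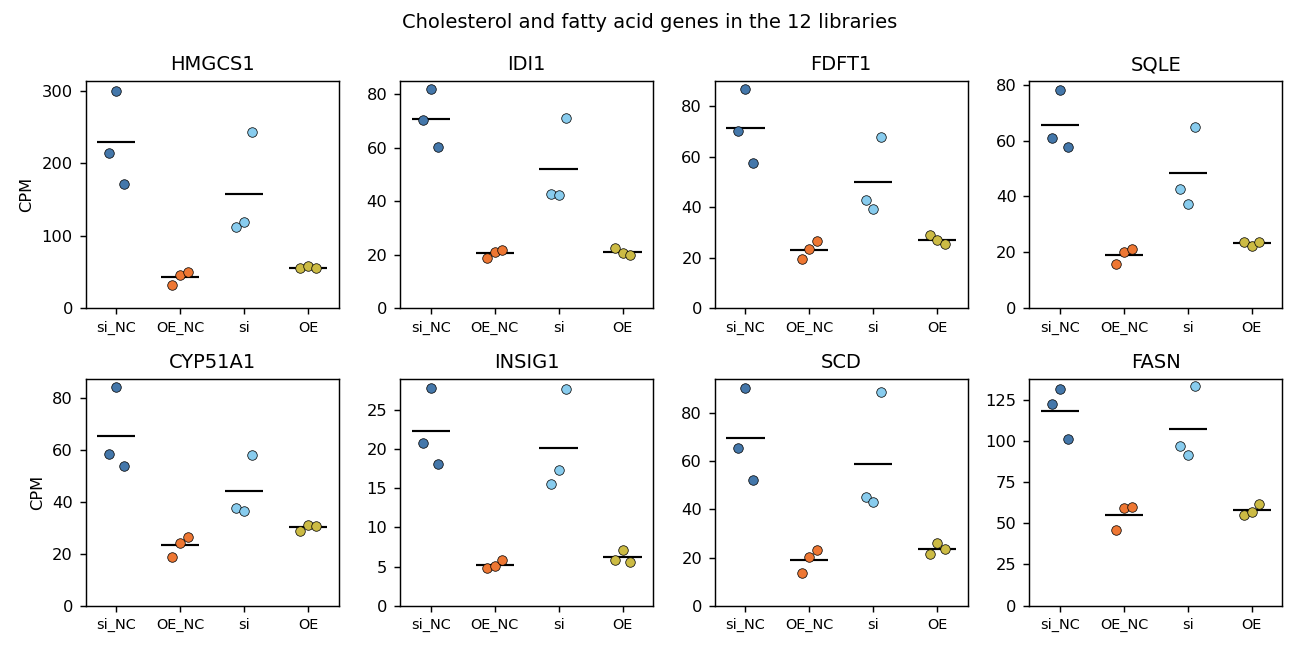
CPM of 6 cholesterol genes (HMGCS1, IDI1, FDFT1, SQLE, CYP51A1, INSIG1) and 2 fatty acid genes (SCD, FASN) in the 12 libraries by group, with points for libraries and lines for group means. In each panel the OE_NC libraries lie below all si_NC libraries, for HMGCS1 at 32.0 to 50.1 against 172 to 301 CPM.

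Genes of fatty acid synthesis and desaturation followed. Of 19 tested, 12 fell and none rose (63.2 percent called, against 19.7 percent of all genes). The median log2 change of the 19 was -0.47. SCD, the stearoyl-CoA desaturase that makes oleate (chromosome 26, 21263976 to 21279185), had 65.7, 90.6 and 52.4 CPM in si_NC and 13.8, 20.2 and 23.1 CPM in OE_NC. No libraries overlapped, and the change was -1.87 ± 0.27 SE on the log2 scale (edgeR adjusted p = 4.9e-04). FASN, fatty acid synthase, had 122, 131 and 101 CPM against 46.0, 59.1 and 59.6 CPM (-1.11), and ACLY, which makes cytosolic acetyl-CoA from citrate, had 72.5, 82.3 and 60.5 against 36.2, 41.9 and 41.4 CPM (-0.85). FADS2 (-1.67) and FADS1 (-1.15), desaturases of polyunsaturated fatty acids that share 133 exon bases on opposite strands, fell, as did ACSS2 (acetyl-CoA synthetase, -1.89), ELOVL6 (elongase, -0.64), ACACA (acetyl-CoA carboxylase, -0.48) and SREBF1, which encodes SREBP1 (-0.46, edgeR adjusted p = 0.044). LPIN1, a phosphatidate phosphatase of triglyceride synthesis, was the fourth largest fall named: 19.5, 20.3 and 10.1 CPM in si_NC and 2.97, 4.83 and 4.65 CPM in OE_NC (95 percent interval of the log2 change -2.64 to -1.36, edgeR adjusted p = 7.3e-04).

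Of 14 tested adipocyte and lipid droplet genes, 2 passed the threshold (14.3 percent, against 19.7 percent of all genes), both higher. These were LPL, lipoprotein lipase (13.5, 15.4 and 13.9 against 21.0, 17.1 and 17.4 CPM, log2 change 0.37), and AGPAT2, an acyltransferase of triglyceride synthesis (0.46, groups overlapping). LPL kept its call in 3 and AGPAT2 in 1 of the 6 fits without 1 library, and neither list member was called without si_NC replicate 3 or OE_NC replicate 1. Of 20 adipogenic transcription factors, 3 rose and 4 fell (35 percent called). KLF15, a late adipogenic factor, fell from 1.64, 2.25 and 2.00 to 0.87, 0.81 and 0.94 CPM (-1.16), while NR1H2, the sterol-sensing receptor LXR beta, rose from 68.1, 71.9 and 69.1 to 90.3, 100 and 90.7 CPM (0.43).

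Stress genes moved in both directions. Of 31 tested genes of the unfolded protein and integrated stress responses, 14 rose and 6 fell (64.5 percent called, against 19.7 percent of all genes). ATF4 had 296, 318 and 303 CPM in si_NC and 430, 425 and 433 CPM in OE_NC (log2 change 0.49 ± 0.06 SE, edgeR adjusted p = 1.7e-04). Both groups were tight and did not overlap. TRIB3, a pseudokinase induced by ATF4, rose from 3.56, 7.81 and 5.18 to 10.4, 13.7 and 15.8 CPM (1.27), and CHAC1, a glutathione-degrading enzyme, rose with a log2 change of 1.31 at 0.39 to 2.82 CPM.

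Of 8 list members that serve amino acid synthesis and transport, 7 rose and none fell; the members were put together after their values were seen, so this describes them only. Their median log2 change was 0.60, and 0.11 in OE minus si. PSAT1, of serine synthesis, went from 13.5, 24.3 and 15.8 to 29.9, 39.2 and 43.1 CPM (log2 change 1.07, edgeR adjusted p = 0.0032). PHGDH, the first enzyme of that pathway, went from 108, 151 and 124 to 168, 196 and 223 CPM (0.62), and ASNS, asparagine synthetase, from 24.5, 33.8 and 27.6 to 37.5, 48.3 and 53 CPM (0.69). In these genes si_NC replicate 2 was the highest of its group, yet below every OE_NC library.

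Of 9 members that fold proteins in the endoplasmic reticulum or clear them from it, 6 fell and 1 rose, again put together after the values were seen. Not all of those that fell were firm. SDF2L1 (log2 change -0.70) kept its call in 0 of 6 fits without 1 library, and EDEM1 (-0.44) in 4. MANF (-0.39, groups overlapping) kept its call in 2 such fits. HSP90B1, the chaperone GRP94, had 7229, 6598 and 6776 CPM in si_NC and 4207, 4356 and 4356 CPM in OE_NC (log2 change -0.67 ± 0.08 SE, edgeR adjusted p = 1.1e-04). CRELD2 fell from 35.7, 36.6 and 16.9 to 14.1, 11.9 and 13.6 CPM (-1.17), with si_NC replicate 3 close to the OE_NC libraries. HSPA5, the chaperone BiP, was the member that rose (880, 840 and 878 against 921, 999 and 1056 CPM, log2 change 0.20, edgeR adjusted p = 0.049). The balance of the list depends on gene length: with the exon length trend removed, 9 rose and 9 fell. Of 19 cytosolic heat shock genes, 9 fell and 1 rose (52.6 percent called, against 19.7 percent of all genes). DNAJA1, a co-chaperone of HSP70, had 395, 360 and 372 CPM in si_NC and 296, 267 and 268 CPM in OE_NC (-0.44), whereas HSP90AA1, the inducible HSP90, was the one that rose (0.28, edgeR adjusted p = 0.021).

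Among 18 genes of the oxidative stress and metal response, 5 fell and 1 rose (33.3 percent called, against 19.7 percent of all genes). SRXN1, sulfiredoxin, which reactivates peroxiredoxins, had 186, 177 and 177 CPM in si_NC and 80.7, 79.9 and 71.1 CPM in OE_NC. The groups lay far apart beside their scatter (log2 change -1.22 ± 0.08 SE, edgeR adjusted p = 4.8e-06; chromosome 13, 60403292 to 60410158). TXNRD1, thioredoxin reductase, had 752, 779 and 812 CPM against 448, 378 and 370 CPM (-0.97, edgeR adjusted p = 6.6e-06). The other 3 that fell were HMOX1 (heme oxygenase, -0.71), GCLM (a subunit of glutamate-cysteine ligase, -0.68) and NFE2L2 itself (107, 127 and 115 against 80.4, 78.6 and 86.5 CPM, -0.50). TXN, thioredoxin, rose (0.34, edgeR adjusted p = 0.037), a call that was lost with the exon length trend removed, where 11 members fell and none rose. NQO1 (-0.34), FTH1 (-0.22) and PRDX1 (-0.13) did not pass the threshold.

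CCND1, cyclin D1, which drives cells into the division cycle, had 103, 90.3 and 86.6 CPM in si_NC and 47.0, 47.7 and 46.1 CPM in OE_NC (log2 change -0.99 ± 0.08 SE, edgeR adjusted p = 6.6e-06). The OE_NC libraries were nearly equal and all below the si_NC libraries. A list of G1 cyclins, CDK inhibitors and related genes such as RBL1 had 19 tested members. Of these, 6 fell and none rose (31.6 percent called, against 19.7 percent of all genes). Among those that fell were CCND2 (-0.48), CCNE1 (-0.88) and RBL1, a relative of the retinoblastoma protein (-0.62). Of 30 genes of mitosis, 2 rose (CDC20, 0.65, and CKS2, 0.55) and none fell (6.67 percent called). MKI67, the proliferation antigen, had a log2 change of 0.01 with a 95 percent interval of -0.21 to 0.23. Of 29 DNA replication genes, 3 fell (10.3 percent called), a count of 0 without si_NC replicate 1 or OE_NC replicate 2 and of 7 without si_NC replicate 2.

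Genes of the response to foreign nucleic acid were called about as often as all genes. Of 31 interferon-stimulated effectors, 1 rose and 4 fell (16.1 percent called), and of 16 sensors 2 rose and 1 fell (18.8 percent), against 19.7 percent of all genes. IRF1, an early interferon-induced factor, rose from 8.14, 10.4 and 8.31 to 12.1, 13.0 and 13.8 CPM (log2 change 0.53, edgeR adjusted p = 0.0084). TRIM25, a ubiquitin ligase of the RIG-I pathway, fell from 89.1, 94.3 and 86.1 to 61.5, 63.4 and 69.2 CPM (-0.47). MX1, an antiviral GTPase, was at 3.71 to 5.06 CPM in si_NC and 4.60 to 7.20 CPM in OE_NC (log2 change 0.40, 95 percent interval -0.01 to 0.82). The sensors called were IFI16 (0.43), a DNA sensor, TLR3 (0.52), an endosomal receptor of double-stranded RNA, and TREX1 (-0.68), a cytosolic DNase. In the 6 fits without 1 library IFI16 kept its call in 4, TLR3 in 2 and TREX1 in 2, and none of the 16 sensors was called without si_NC replicate 1. CGAS, the cytosolic DNA sensor, was at 2.93 to 3.96 CPM in the 6 libraries (log2 change -0.07, interval -0.47 to 0.33). Both controls carry transfected agent, so these values say how the controls compare and not what transfection does.

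Among the 12 largest rises, PTX3, a soluble pattern recognition protein, had 2.09, 6.26 and 3.67 CPM in si_NC and 7.91, 12.1 and 15.8 CPM in OE_NC (log2 change 1.58, edgeR adjusted p = 0.0022). EMP3, a membrane protein, was the most abundant of the 12: 988, 919 and 981 CPM in si_NC and 2159, 2270 and 1928 CPM in OE_NC. All OE_NC libraries were about double the si_NC libraries (log2 change 1.14 ± 0.09 SE, edgeR adjusted p = 6.6e-06; chromosome 18, 55038414 to 55042758). THY1, the stromal antigen CD90 and also 1 of the 12, rose from 6.93, 11.7 and 9.05 to 19.8, 21.3 and 21.1 CPM (1.17). Outside the 12, MFAP5, a microfibril protein, rose from 19.6, 22.5 and 22.9 to 43.7, 48.7 and 41.5 CPM (1.04), and TIMP1, an inhibitor of matrix proteases, from 164, 165 and 168 to 321, 314 and 297 CPM (0.91). Of 15 preadipocyte and stromal markers, 3 rose and 1, the adhesion molecule ALCAM, fell (-0.55), 26.7 percent called against 19.7 percent of all genes. Of 32 collagens and matrix proteins, 2 rose (BGN, 0.57, and ELN, 0.64) and 5 fell, 21.9 percent called and so close to the share of all genes. COL4A2, a basement membrane collagen, was among those that fell (728, 970 and 786 against 472, 501 and 600 CPM, -0.66).

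H19, a long noncoding RNA expressed from the maternal allele, rose from 55.4, 118 and 70.9 to 163, 223 and 237 CPM (log2 change 1.35, edgeR adjusted p = 0.0022). Its highest si_NC value was again in replicate 2. MEG3, another imprinted noncoding RNA, rose from 2.16, 4.04 and 2.87 to 4.25, 8.11 and 8.88 CPM (1.23), a call lost without si_NC replicate 1. The others of the 12 largest rises were MEGF6 (1.56), ENO3 (muscle enolase, 1.33), SELENOV (1.29), TRIB3 (1.27), CCDC39 (1.21), XIRP1 (1.16) and PCK2 (mitochondrial PEP carboxykinase, 1.15, a call kept in 2 of 6 fits without 1 library). Among the 12 largest falls, KCNE4, a potassium channel subunit, had 6.28, 27.6 and 8.05 CPM in si_NC and 2.89, 5.33 and 4.93 CPM in OE_NC (log2 change -1.66). Its call was kept in 2 of 6 fits without 1 library and lost without si_NC replicate 2 or any 1 OE_NC library, and in limma on RPKM.

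**Figure D3:**
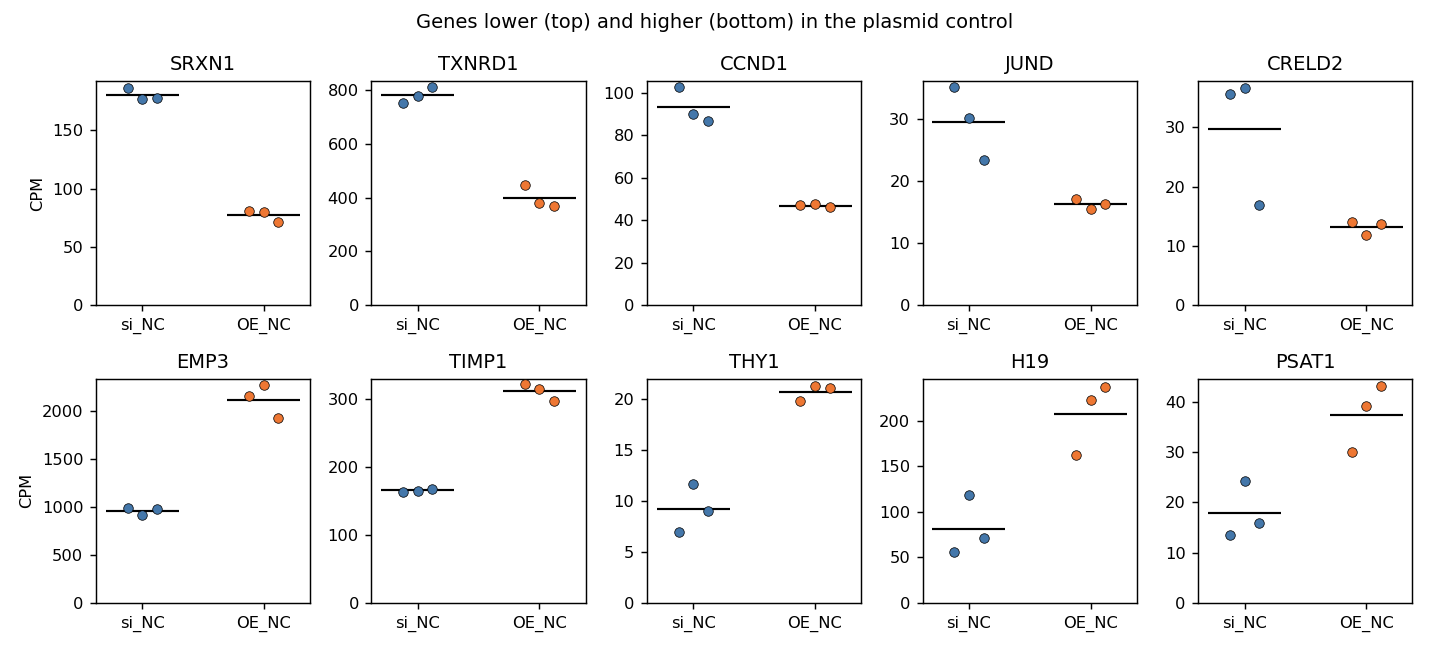
CPM of 10 called genes in the 3 si_NC and 3 OE_NC libraries, with points for libraries and lines for group means; axes start at 0. SRXN1, TXNRD1, CCND1, JUND and CRELD2 (top) were lower and EMP3, TIMP1, THY1, H19 and PSAT1 (bottom) higher in OE_NC, with no overlap in any panel; EMP3 lay at 919 to 988 against 1928 to 2270 CPM.

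Of 27 immediate early genes, 7 rose and 3 fell (37 percent called, against 19.7 percent of all genes). DUSP1, a MAP kinase phosphatase, rose from 70.6, 75.9 and 81.5 to 109, 117 and 110 CPM (log2 change 0.56), and JUND, an AP-1 subunit, fell from 35.1, 30.2 and 23.4 to 17.0, 15.5 and 16.3 CPM (-0.86). That list had 2 risers and 1 faller without OE_NC replicate 2, and 3 and 5 without si_NC replicate 2. Of 30 lysosomal genes, 7 fell and 1 rose (26.7 percent called). CTSZ, a cathepsin, had 197, 197 and 206 against 149, 136 and 140 CPM (-0.50). Of 22 p53 targets, 4 fell and 2 rose (27.3 percent called). CCNG1, cyclin G1, had 215, 202 and 208 against 137, 128 and 128 CPM (-0.67, edgeR adjusted p = 2.2e-05). Of 16 smooth muscle contractile genes, TPM2 (0.37), MYL9 (0.47) and TAGLN (0.49) rose and none fell, 18.8 percent called and so close to the share of all genes. SPP1, osteopontin, a member of the bone list, fell from 225, 134 and 192 to 127, 85.8 and 77.5 CPM (-0.92). Of the 6 tested members of that list, 3 rose and 1 fell.

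Of the called genes named, some lost the call when 1 control library was left out. Without si_NC replicate 1 these were HGFAC, SREBF1, LPL, CHAC1, PHGDH, HSPA5, MANF, SDF2L1, GCLM, TXN, ELN, MEG3, PCK2, IFI16, TLR3, TREX1, NCL, TMSB10, KEH36_t11, RN18S1 and RN7SL1. Without si_NC replicate 2, the library that stood apart, they were SREBF1, AGPAT2, HSPA5, EDEM1, SDF2L1, HSP90AA1, TXN, CKS2, TLR3, TREX1, SOX9, KCNE4, TMSB10, KEH36_t11, RN18S1 and RN7SL1. Without si_NC replicate 3 they were HGFAC, LPL, AGPAT2, HSPA5, MANF, SDF2L1, HSP90AA1, TXN, PCK2, SOX9, NCL, TMSB10, KEH36_t11 and RN18S1. Without OE_NC replicate 1 they were HGFAC, SREBF1, LPL, AGPAT2, EDEM1, SDF2L1, HSP90AA1, TXN, CKS2, TREX1, SOX9, KCNE4, TMSB10, RN18S1 and RN7SL1. Without OE_NC replicate 2 they were HGFAC, SREBF1, AGPAT2, CHAC1, HSPA5, MANF, SDF2L1, HSP90AA1, GCLM, TXN, CCNE1, CKS2, ELN, PCK2, TLR3, TREX1, KCNE4, NCL, KEH36_t11, RN18S1 and RN7SL1. Without OE_NC replicate 3 they were SREBF1, AGPAT2, CHAC1, HSPA5, MANF, SDF2L1, GCLM, TXN, ELN, PCK2, IFI16, TLR3, SOX9, KCNE4, NCL, TMSB10 and KEH36_t11. Small list counts moved too: adipogenic factors had 1 faller without si_NC replicate 2, OE_NC replicate 1 or OE_NC replicate 2, collagens had 5 risers without si_NC replicate 2 and 6 without OE_NC replicate 1, and lysosomal genes had 4 fallers without OE_NC replicate 2. Thus TXN and SDF2L1 kept their calls in none of the 6 fits, and SREBF1, AGPAT2, HSPA5, TMSB10, KEH36_t11 and RN18S1 kept theirs in 1.

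The controls also differed in which kinds of gene took up the reads. Of 897 tested pseudogenes, 312 rose (34.8 percent, against 9.49 percent of all genes) and 3 fell, with a median log2 change of 0.71. Of 1480 genes with 1 annotated exon, 422 rose (28.5 percent) and 27 fell (median 0.54). With the genes split into 5 classes by exon length, the median log2 change went from 0.23 (shortest) to -0.08 (longest). Split by abundance in the same way, it went from 0.38 in the lowest class to -0.12 in the highest. In the lowest class 5.71 percent rose and 0.644 percent fell. In the highest 7.82 percent rose and 26 percent fell. The list shares above were set against all genes, and a comparison with genes of similar abundance was not made. Of the 410 rises of at least 2-fold, 135 were pseudogenes and 170 had 1 annotated exon, 201 being of either kind. A LOC number was carried by 254, and 61 reached a mean of 5 CPM in the controls, the median being 1.03 CPM. Of the 83 falls, 42 reached 5 CPM.

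Per library, pseudogenes took 0.78, 0.658 and 0.782 percent of counts in si_NC and 1.18, 1.24 and 1.01 percent in OE_NC, and 20526 to 20856 genes had a count against 22541 to 23255. RN18S1, the 18S ribosomal RNA, which polyA selection should deplete, had 386, 243 and 377 CPM in si_NC and 779, 823 and 538 CPM in OE_NC. No library of one group overlapped the other in these measures. RN18S1 passed the threshold (log2 change 1.09, edgeR adjusted p = 0.047), a call kept in 1 of 6 fits without 1 library. Shares of counts in pseudogenes, LOC genes, mitochondrially encoded genes (1.58 to 1.70 against 1.72 to 1.80 percent), ribosomal proteins and the 10 most abundant genes, and the number of genes with a count, each gave an exact two-sided permutation p of 0.1, the smallest that 3 against 3 libraries allow, in 6 comparisons. These shares are of library totals without the TMM factor. As summed CPM the groups overlapped for mitochondrially encoded genes (16659 to 17349 against 16678 to 17434) and ribosomal proteins (19176 to 23516 against 23095 to 28685). OE_NC libraries were also deeper (35.1 to 38.2 against 28.9 to 32.2 M counts). The part of this make-up in the gene results was not tested. Without si_NC replicate 2 and si replicate 3, 310 pseudogenes still rose, with a median of 0.65.

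Ribosomal protein genes tended to be higher in OE_NC, and a link to that make-up was not tested. Of 42 tested, 15 rose and none fell (35.7 percent called, against 19.7 percent of all genes). The median log2 change of the 42 was 0.24. RPL6 went from 1485, 1199 and 1407 to 2331, 1981 and 1880 CPM (0.60, edgeR adjusted p = 0.0033), and si_NC replicate 2 was the lowest library. The direction of the list is not stable: 5 rose and 7 fell, with a median of -0.04, once the exon length trend was removed, and 6 rose and 2 fell without si_NC replicate 2, and 6 rose and 1 fell without OE_NC replicate 1. Ribosomal proteins have many processed copies in the genome, so their counts are uncertain. Of 13 mitochondrially encoded genes only ATP8, a subunit of ATP synthase, rose (1940, 1977 and 1832 against 2671, 2588 and 2372 CPM, 0.41), a call lost with the length trend removed; 40 of its 201 bases are shared with ATP6.

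**Figure D4:**
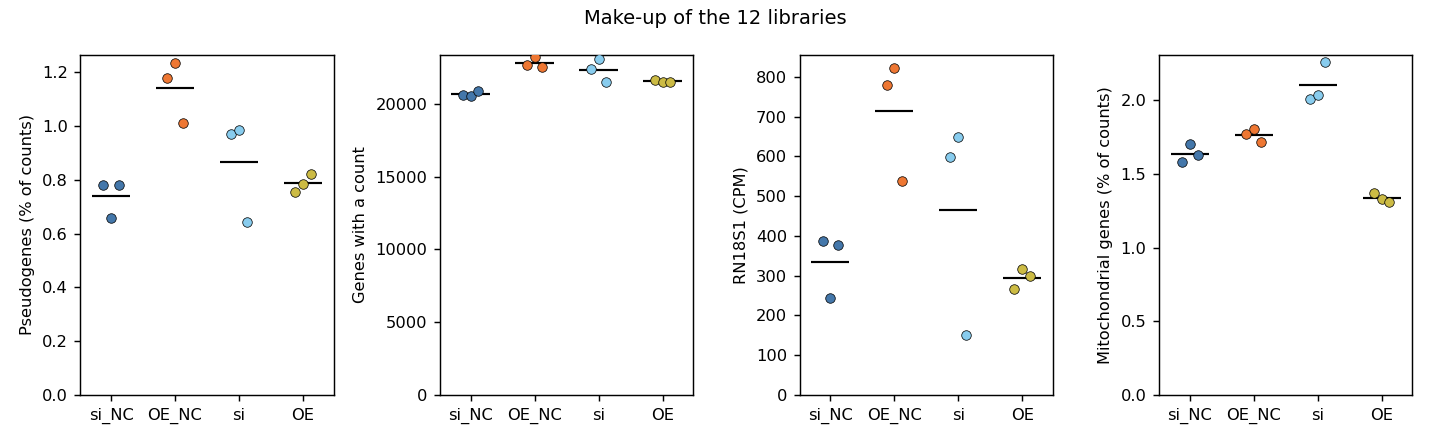
Share of counts in pseudogenes, number of genes with a count, RN18S1 in CPM and share of counts in mitochondrially encoded genes for the 12 libraries by group, with points for libraries and lines for group means. Shares are of library totals without the TMM factor, and axes start at 0. OE_NC lies above si_NC in all 4 panels, for RN18S1 at 538 to 823 against 243 to 386 CPM, and replicate 2 of si_NC and replicate 3 of si are the lowest of their groups for pseudogenes and RN18S1.

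Per exon length, the most abundant genes called included NCL, a nucleolar RNA-binding protein, at mean levels of 3433 RPKM in si_NC and 2797 RPKM in OE_NC, TMSB10, an actin-binding peptide, at 2664 and 3383 RPKM, and CALR, a chaperone of the endoplasmic reticulum, at 3214 and 2770 RPKM. Their log2 changes on the count scale were -0.39, 0.25 and -0.30, small beside those of the sterol genes. TMSB10 changed sign, to -0.072, with the exon length trend removed. Of the 6 fits without 1 library, NCL kept its call in 2, TMSB10 in 1 and CALR in 6. HMGCS1 had 44.3 RPKM in si_NC and 8.74 RPKM in OE_NC, and SCD 13.2 and 3.83 RPKM. Above these stood a mitochondrial tRNA, KEH36_t11 (-0.17, a call kept in 1 of 6 such fits), ATP8, and MIR3533 (-0.61), of whose 84 bases 83 lie in ACTG1, so that its reads cannot be told from those of actin.

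The OE and si libraries gave the same contrast of experiments in 6 other libraries, although they also differ in HGFAC and in the interference agent. There, 2368 of 16300 genes were called (14.5 percent). Of the genes called in either comparison, 734 were called in the same direction in both, 22.8 percent of the calls between the controls and 31.0 percent of the calls between OE and si, and 116 were called in opposite directions. Of the 83 falls of at least 2-fold between the controls, 80 were also negative in OE minus si and 48 were called there. Of the 410 rises of at least 2-fold, 197 were positive (48.0 percent) and 47 were called. Over all genes tested the sign was the same in 58.8 percent. Without si_NC replicate 2 and si replicate 3, 79 of 87 falls and 255 of 478 rises kept their sign.

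Sterol genes fell in both comparisons. In OE minus si, 17 of 22 cholesterol genes fell and none rose (median log2 change -0.78), the same 17 being lower between the controls. HMGCS1 had 112, 119 and 244 CPM in si and 54.8, 57.6 and 55.1 CPM in OE (log2 change -1.50, edgeR adjusted p = 0.0018), and SCD 45.1, 43.0 and 88.8 against 21.6, 26.0 and 23.4 CPM (-1.32). In both genes si replicate 3 was about double its group, and every OE library was still below every si library. Without si replicate 3, 14 of the 22 fell in OE minus si (median -0.60). Against their own controls, which each share 3 libraries with the comparison of controls, the list's median was -0.28 in si minus si_NC and 0.06 in OE minus OE_NC.

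The oxidative list fell further between OE and si, where 13 of 18 members were lower and none higher (median -0.65), including all 5 that fell between the controls. SRXN1 had 195, 193 and 161 CPM in si and 80.5, 74.4 and 78.9 CPM in OE (log2 change -1.23, edgeR adjusted p = 1.1e-06). CCND1 had 74.0, 81.6 and 77.0 against 42.0, 38.4 and 38.5 CPM (-0.97, edgeR adjusted p = 5.1e-06). For both genes the change was close to that between the controls, -1.22 and -0.99. EMP3 (0.86) and PTX3 (3.22) also rose there. PTX3 had 29.7, 32.2 and 33.9 CPM in OE and 3.15, 3.11 and 4.02 CPM in si. Its OE values also lay above those of OE_NC (7.91, 12.1 and 15.8 CPM).

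Other groups gave other values there. Pseudogenes had a median of -0.13 in OE minus si, and of the 312 that rose between the controls 5 were called higher. The median of ribosomal proteins was -0.01, with none higher and 1 lower. All 13 mitochondrially encoded genes fell in OE minus si (median -0.60), where between the controls 1 rose and the median was 0.00. Some genes called in both changed direction: CCNG1 was -0.67 between the controls and 0.21 in OE minus si (edgeR adjusted p = 0.033), and TRIM25 was -0.47 and 0.24 (edgeR adjusted p = 0.041).

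**Figure D5:**
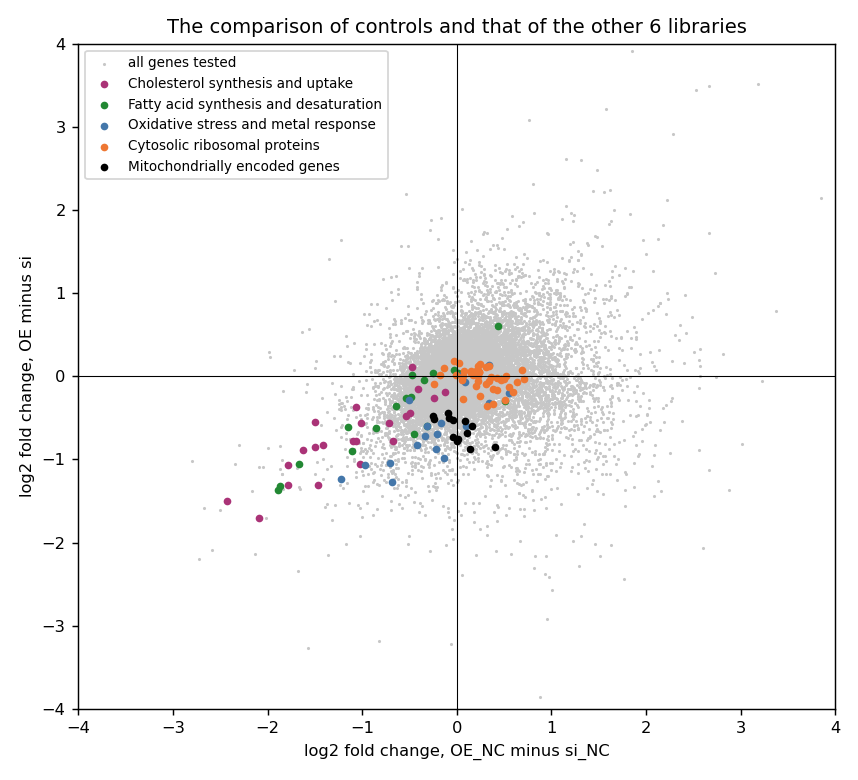
Log2 fold change of each tested gene in OE_NC minus si_NC (horizontal) and OE minus si (vertical), which share no libraries, with members of 5 lists coloured; 6 genes beyond 4 on an axis, HGFAC among them, are not drawn. Cholesterol genes lie at lower left (medians -1.07 and -0.78), ribosomal proteins to the right of 0 near the horizontal line (0.24 and -0.01), and mitochondrially encoded genes below it (0.00 and -0.60).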

How the data were processed

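The authors deposited raw counts of reads per gene and RPKM. Per the submitters' processing notes, which list tools without roles, fastp (0.23.0) and featureCounts (Subread 1.5.1) were used. For the aligner, genome build, counting strand and multi-mapped reads, the sources used here give nothing, so coordinates are those of the count table. Counts with no gene name (0.087 to 0.116 percent) were dropped, and 0 columns were unmapped. All 12 libraries entered 1 edgeR 4.0.16 fit (R 4.3.3) with a mean per group: filterByExpr (10 counts, total 15), TMM, quasi-likelihood F test on 8 residual degrees of freedom, and Benjamini-Hochberg adjustment over all genes at 0.05. Alternatives included limma 3.58.1 on the deposited RPKM, as log2(RPKM + 1), and DESeq2 1.42.0. The comparison and the 34 gene lists were chosen with earlier results of these data known, so lists carry counts and medians but no test. The rule for named genes took HGFAC; the 12 strongest rises and 12 strongest falls that were called, had a symbol, averaged 5 CPM or more in the controls and did not overlap; the 6 called genes highest in RPKM; up to 4 called members of each list by smallest p; and the highest markers of other cells. Further list members were named after their values were seen, and a few genes that the lists count are not reported here by name. Biotypes came from a reference gene table of an assembly that may differ. The fit was tested on simulated counts.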

Additional observations from a re-analysis of the deposited data

How the results depend on the processing

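The 3215 calls between the controls came to between 2413 and 3794 under the alternatives of scaling, filter, tool, halved counts, exon length trend, and a fit of the 6 control libraries alone, and to 493 with a 2-fold minimum added. Leaving out 1 library gave 1882 to 2833 calls, the lowest without OE_NC replicate 2. Without si_NC replicate 2 and si replicate 3, an alternative added after seeing the data, there were 3928. OE minus si had 2368 calls, 300 with the 2-fold minimum, and 1193 to 2406 with 1 library left out, falling to 1193, 1265 and 1420 without OE replicate 2, OE replicate 3 and si replicate 2. Same replicate numbers did not pair the samples (correlations of deviations 0.19, 0.07 and -0.12 between the controls); with the number as a block 3150 genes were called, 2990 of them among the 3215. Of 130 called named genes, 96 kept the call in every fit without 1 library and 87 in all alternatives. One changed sign: TMSB10 was -0.072 with the exon length trend removed (edgeR adjusted p = 0.53), and the cause was not tested. With 3 libraries a group, genes at low counts carry wide errors, and p-values cannot separate experiment from agent.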

Other observations

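IGF2, the growth factor gene that neighbours H19 and is expressed from the paternal allele, was looked up after the H19 values were seen. It had 3.27, 5.55 and 4.87 CPM in si_NC and 6.87, 9.25 and 9.63 CPM in OE_NC (log2 change 0.91, edgeR adjusted p = 0.0040), and the groups did not overlap. In OE minus si its log2 change was 1.16 (edgeR adjusted p = 6.9e-04), beside 0.82 for H19 and 1.26 for MEG3, so all 3 imprinted genes were higher in OE_NC than si_NC and in OE than si.

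RN7SL1, the RNA of the signal recognition particle, which like RN18S1 is not a typical polyadenylated RNA, had 4.06, 3.52 and 7.08 CPM in si_NC and 12.4, 9.70 and 8.41 CPM in OE_NC (log2 change 1.06, edgeR adjusted p = 0.037, a call kept in 2 of 6 fits without 1 library and lost without replicate 1 or 2 of si_NC and replicate 1 or 2 of OE_NC). NEXN, an actin-binding protein, had 12546, 11615 and 11513 CPM in si_NC and 7274, 7287 and 7129 CPM in OE_NC (log2 change -0.72, edgeR adjusted p = 1.6e-05), and changed by 0.29 in OE minus si (edgeR adjusted p = 0.0080).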
